A study of Mus musculus with 9 samples.

Results

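Disease-associated microglia are a state of the brain's resident macrophages, and 10 genes that mark this state were followed across an RNA-seq study of ageing in mice. The 10 genes, Trem2, Tyrobp, Cst7, Lpl, Itgax, Spp1, Axl, Cd68, Gpnmb and Lgals3, were taken by name from the deposited table. All 10 were found among its 22192 genes. KM mice (an outbred stock), which the labels call male, gave 9 libraries labelled brain, in 3 groups. A young group, 5 months old, and an aged group, 18 months old, took saline by mouth. A second group of aged mice, also 18 months old, was given GRP-E1F2, a ginseng root polysaccharide, at 200 mg/kg by gavage. Dosing in every group was every 2 days for 4 weeks. The labels name no transgene or injury in any group, and no young group took GRP-E1F2. Each group has 3 libraries, numbered here as in the labels, which call them parallel samples and do not say that they came from separate animals. The p-values therefore measure only the spread between these libraries, which may be technical. Levels are in TPM, a transcript abundance scaled for transcript length and for the library's total. TPM keep no read numbers, so the depth behind each value is unknown.

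In textbook accounts, TREM2 is a lipid-sensing receptor on the microglial surface, and it signals through the adaptor TYROBP, also called DAP12. Microglia that meet myelin debris, amyloid or dying neurons turn down genes of the resting (homeostatic) state and turn up genes for lysosomes, lipid uptake and phagocytosis, and the later steps of that change need TREM2. Several of the genes are not private to microglia: Spp1 is also made by neurons of the brainstem, Lpl by neurons, Axl by vessels and fibroblast-like cells, and Lgals3 by macrophages and other cells.

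The promoters of 3 of these genes are printed, chosen from those that parted with age. Trem2 was higher in aged mice, Spp1 was lower, and the ranges of Cd68 lay apart with no called change. The ranges of Axl, Lgals3 and Lpl lay apart with age too, and their promoters are not printed. RefSeq promoter sequences of the mouse assembly GRCm38.p6 (mm10) were found for 8 of the 10 genes, all but Tyrobp and Lpl. Capitals mark GAGGAA, the central letters of the motif of the myeloid factor PU.1, or its reverse complement TTCCTC. Each line gives the 250 bases before an annotated start, for Spp1 the first of 2 in the table, 5′ to 3′ along the gene. Trem2 lies on the plus strand at chr17:48346151-48346400, Cd68 on the minus strand at chr11:69666171-69666420, and Spp1 on the plus strand at chr5:104434861-104435110.
Trem2: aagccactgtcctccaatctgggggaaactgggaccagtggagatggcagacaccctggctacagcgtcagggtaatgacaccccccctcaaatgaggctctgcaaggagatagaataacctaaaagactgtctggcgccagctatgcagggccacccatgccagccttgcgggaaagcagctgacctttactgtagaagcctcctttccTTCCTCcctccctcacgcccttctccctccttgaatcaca
Cd68: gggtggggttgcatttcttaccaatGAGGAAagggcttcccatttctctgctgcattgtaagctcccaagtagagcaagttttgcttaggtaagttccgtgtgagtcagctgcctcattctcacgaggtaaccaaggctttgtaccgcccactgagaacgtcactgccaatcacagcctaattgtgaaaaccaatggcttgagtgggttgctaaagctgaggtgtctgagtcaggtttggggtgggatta
Spp1: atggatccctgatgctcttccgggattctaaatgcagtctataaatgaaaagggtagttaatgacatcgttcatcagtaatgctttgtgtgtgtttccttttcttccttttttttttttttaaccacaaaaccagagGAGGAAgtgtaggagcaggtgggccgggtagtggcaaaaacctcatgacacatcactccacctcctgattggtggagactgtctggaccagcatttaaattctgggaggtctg
The letters GAGGAA, searched on both strands, were in 4 of the 9 windows of these 8 genes, 1 each of Trem2, Cd68, Spp1 and Axl. The other Spp1 window, at chr5:104435942-104436191, had no match, nor did those of Lgals3, Cst7, Gpnmb and Itgax. The letters were in 23.3% of 32851 promoter windows of this length. The E-box letters CACGTG, bound by factors of lysosomal genes such as TFEB, were in 6.02% of all windows and in none of the 8 genes. A letter match is a description of the sequence and not a measured binding site.

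Several facts on the libraries come before the results. Young library 3, aged library 2 and treated library 3 lay between the other pair of their group at 89.2%, 91.5% and 91.8% of the tested genes that differed at least 1.3-fold within that pair. The other libraries did so at 19.2% to 30.5%. Among the 10 genes, the same 3 libraries lay between the other pair at 8, 8 and 6 genes. An SD or p over 3 such libraries may be too small, so results are also given for the fit without them, with 2 libraries per group. The libraries carry the label male, but the highest value of 4 Y-linked genes was 0.174 TPM. Retina is named in the extraction protocol, against the tissue label. Sums of 10 retinal genes were 13.6 to 19.9 TPM in young, 17.1 to 20.3 TPM in aged saline and 23.7 to 27.6 TPM in treated libraries. Genes of mature oligodendrocytes, the myelin-forming cells of the brain, summed to 9327 to 9903, 6339 to 7622 and 5722 to 5891 TPM in these groups. The microglial marker Tmem119 was at 10.8 to 20.5 TPM over the 9 libraries. Neuronal region markers differed between the groups: the summed level of 12 hindbrain and spinal cord genes was 50.8 to 69.8 TPM in young, 1.58 to 8.11 TPM in aged saline and 0.59 to 0.794 TPM in treated libraries. Sums of 12 cerebellar neuron genes were 3513 to 5056, 2187 to 2563 and 205 to 210 TPM in these groups, and sums of 12 astrocyte genes were 2066 to 2466, 1641 to 1832 and 1073 to 1111 TPM. Choroid plexus genes summed to 2248 to 2307, 165 to 1255 and 23.6 to 966 TPM, and anterior pituitary genes to 195 to 217, 197 to 227 and 169 to 1029 TPM. Age and treatment therefore cannot be told apart here from the brain regions that each library holds.

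The 10 genes covered a wide range of levels. Tyrobp was the highest in every library, between 52 and 82.5 TPM, and made up 39.9% to 57.1% of the summed TPM of the 10. Trem2, Spp1, Axl, Lpl and Cd68 followed, with means over the 9 libraries below that of Tyrobp. Lgals3 lay between 0.284 and 3.16 TPM and Gpnmb between 0.807 and 1.32 TPM. Cst7 and Itgax stayed under the mean of 1 TPM that was asked for testing, so 8 of the 10 genes were tested and these 2 are described only.

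**Figure D1:**
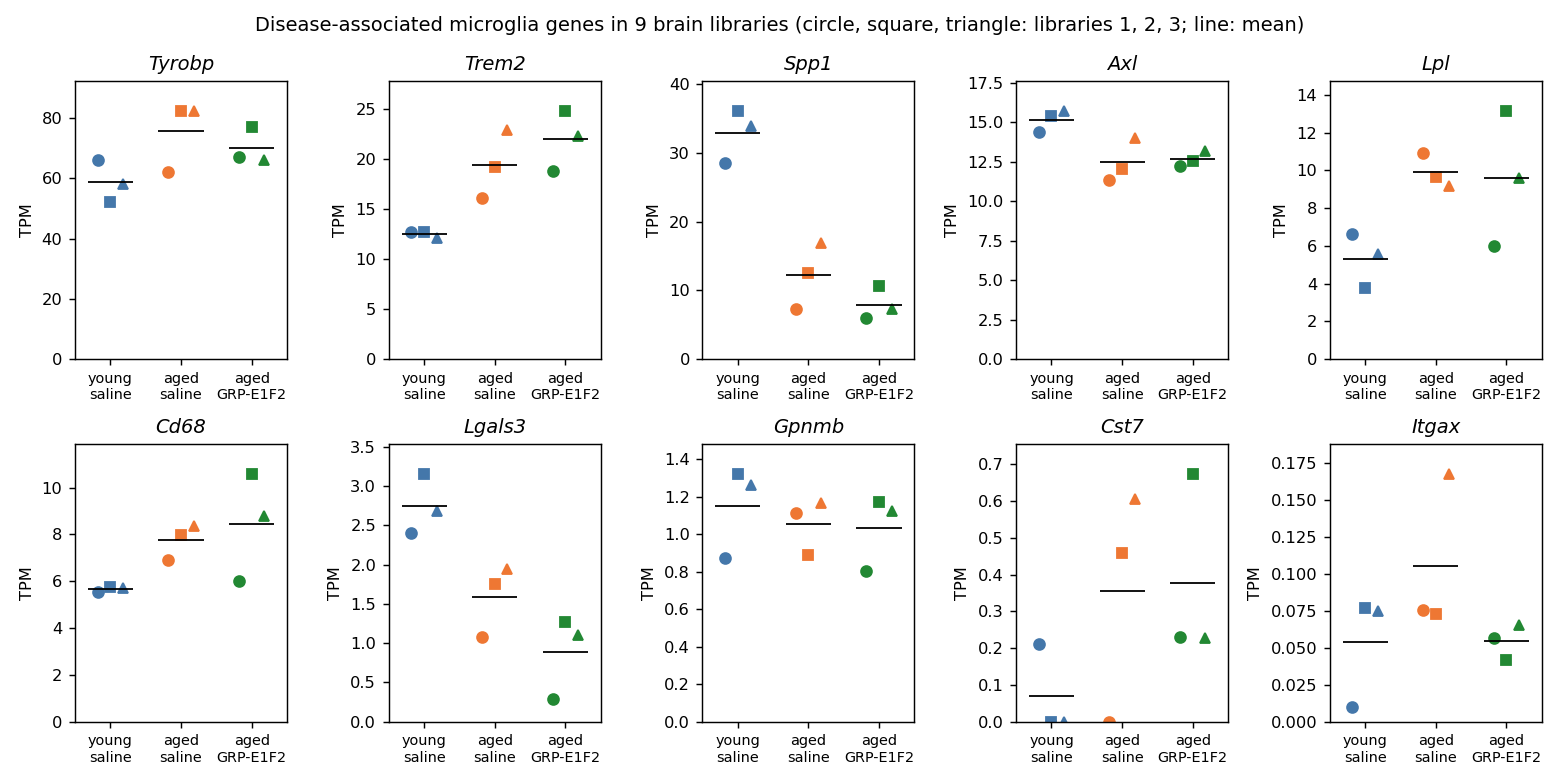
Level of each of the 10 genes in the 9 libraries, in TPM, 1 panel per gene with its own axis from 0. Points are libraries and horizontal lines are group means. The Spp1 points of the young group, at 28.6 to 36.2 TPM, all lie above the 17 TPM reached at most in the aged groups, while the Trem2 points of the young group lie below all others.

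Trem2, the receptor, was higher in every aged library than in every young one. Trem2 stood at 12.7, 12.7 and 12.1 TPM in young libraries 1, 2 and 3, at 16.1, 19.2 and 22.9 TPM in the aged saline libraries, and at 18.7, 24.8 and 22.3 TPM in the treated libraries. The young values were within 1 TPM of each other, and the aged saline and treated ranges overlapped. The group means were 12.5 ± 0.332, 19.4 ± 3.41 and 21.9 ± 3.04 TPM (SD, n = 3). Trem2 rose with age by 0.58 on the log2(TPM + 1) scale (SE 0.129, adjusted p = 0.0211). It was also higher in treated aged than in young mice, by 0.76 (adjusted p = 0.00147). The treated-to-aged difference was 0.18, with a 95% interval of -0.12 to 0.47 (adjusted p = 0.367). Fitted on 2 libraries per group, the age difference was 0.56 (adjusted p = 0.416) and the treated-to-young difference 0.72 (adjusted p = 0.0623). The age call was also lost without young library 2, young library 3 or aged library 2, at adjusted p = 0.0633, 0.0832 and 0.0816.

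Tyrobp, the adaptor that carries the TREM2 signal, did not pass the test in any comparison. Its levels were 66.2, 52 and 58.1 TPM in young, 62.1, 82.3 and 82.5 TPM in aged saline and 67, 77.1 and 66.3 TPM in treated libraries. Aged library 1 lay inside the young range, and the other aged libraries lay above it. The log2 difference with age was 0.35 (SE 0.127, adjusted p = 0.0839). Without aged library 1 it was 0.49 and passed (adjusted p = 0.0336). Treated and aged saline mice differed by -0.10, with an interval of -0.39 to 0.19 (adjusted p = 0.617). The treated libraries all lay just above the young ones, by 0.25 on average (adjusted p = 0.129). The ratio of Tyrobp to Trem2 TPM was 4.09 to 5.23 in young, 3.61 to 4.29 in aged saline and 2.97 to 3.58 in treated libraries. The treated ratios lay below all others, and the young and aged saline ratios overlapped.

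In bulk tissue, fewer microglia and less RNA per microglial cell cannot be told apart, and this applies to each gene described here. Trem2 moved beside homeostatic microglia genes. The summed TPM of 13 such genes was 103 to 126 in young, 148 to 157 in aged saline and 170 to 219 in treated libraries. With age, 6 of the 13 rose (Selplg, Siglech, Csf1r, P2ry13, P2ry12 and Gpr34) and none fell, beside 5.48% of all tested genes that rose. Between treated and aged saline mice 5 rose (Sall1, Cx3cr1, Siglech, Selplg and Csf1r) and none fell, beside 7.47% of all tested genes that rose. Between treated and young mice 11 rose, beside 17.2% of all tested genes. The median log2 change of the 13 genes was 0.35, 0.41 and 0.69 in these comparisons, beside -0.05, -0.02 and -0.07 over all tested genes. With 2 libraries per group 0, 0 and 5 of the 13 were called. Calls over all tested genes also became far fewer in that fit, most of all with age, as counted in the closing section. Leaving out 1 library gave 0 to 8 calls with age and 1 to 8 between treated and aged saline mice. The age count was 0 without young library 2, young library 3 or aged library 2, 1 without aged library 1, and 2 without aged library 3 or treated library 3. The treated-to-aged count was 3 without young library 3, aged library 1 or treated library 2, 2 without aged library 2 or aged library 3, and 1 without treated library 3. The part of the microglial share in the member results was not tested.

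Cd68, a glycoprotein of late endosomes and lysosomes used as a marker of phagocytic microglia, was higher in aged brains, but the age difference did not pass. Its levels were 5.56, 5.76 and 5.71 TPM in young, 6.91, 7.98 and 8.37 TPM in aged saline and 5.99, 10.6 and 8.77 TPM in treated libraries. All 6 aged libraries lay above the 3 young ones, and the treated libraries were the most spread. The age difference was 0.39 on the log2 scale (SE 0.161, adjusted p = 0.124). It passed without treated library 1 (adjusted p = 0.0258). Cd68 was higher in treated than in young mice by 0.47 (adjusted p = 0.0378). That call was lost with no filter on low genes (adjusted p = 0.0565), in a fit of only the groups compared (0.0669) and with 2 libraries per group (0.28). It was also lost without young library 1, 2 or 3, aged library 2, or treated library 2 or 3, at adjusted p = 0.084, 0.0816, 0.0876, 0.0571, 0.105 and 0.111. Treated and aged saline mice differed by 0.08, with an interval of -0.28 to 0.45 (adjusted p = 0.747).

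Lpl, lipoprotein lipase, which releases fatty acids from lipoproteins, was higher in every aged saline library than in every young one. Lpl measured 6.61, 3.78 and 5.54 TPM in young, 10.9, 9.65 and 9.15 TPM in aged saline and 5.99, 13.2 and 9.59 TPM in treated libraries. Treated library 1 fell inside the young range, and treated library 2 was the highest of the 9. The age difference of 0.81 (SE 0.247) missed the threshold (adjusted p = 0.0522). It passed without young library 1, treated library 1 or treated library 2, at adjusted p = 0.0443, 0.0197 and 0.0271. Lpl was higher in treated than in young mice by 0.71 (adjusted p = 0.0401). This call was lost with no filter on low genes (adjusted p = 0.0604), in a fit of only the groups compared (0.08) and with 2 libraries per group (0.23). It was also lost without young library 2 (0.139), young library 3 (0.0773), aged library 1 (0.0519), aged library 2 (0.0597), aged library 3 (0.0523), treated library 2 (0.115) or treated library 3 (0.104), given as adjusted p. Treated and aged saline mice differed by -0.10, with an interval of -0.66 to 0.46 (adjusted p = 0.804).

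The Lpl order within each group was the order of a striatal neuron marker sum. The 12 striatal genes summed to 1406, 437 and 932 TPM in young libraries 1, 2 and 3, to 1978, 1683 and 1446 TPM in the aged saline libraries and to 1097, 3172 and 2140 TPM in the treated ones. At most genes that differed inside a group, the middle value belonged to young library 3, aged library 2 or treated library 3. Orders of unrelated genes can therefore match easily, and this match cannot show where the Lpl signal came from. The striatal list is also among 20 marker lists, all chosen with earlier results known. The part of striatal tissue in the Lpl values was not tested.

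Gpnmb, a glycoprotein of lysosomes and melanosomes that lipid-laden macrophages make, stayed between 0.807 and 1.32 TPM in all 9 libraries. Its group means were 1.15 ± 0.246, 1.06 ± 0.146 and 1.04 ± 0.2 TPM (SD, n = 3). The 3 ranges overlapped, and no difference passed (adjusted p = 0.754 with age, 0.932 between treated and aged saline, 0.615 between treated and young). Cst7, which encodes cystatin F, an inhibitor of lysosomal cathepsins, was listed at 0 in young libraries 2 and 3 and aged library 1. Elsewhere Cst7 was at 0.212 TPM in young library 1, at 0.458 and 0.606 TPM in aged libraries 2 and 3, and at 0.231, 0.675 and 0.227 TPM in the treated libraries. The groups overlapped at these low levels, and no test was made.

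Spp1, which encodes the secreted glycoprotein osteopontin, was lower in aged brains, the opposite direction to Trem2. Its levels were 28.6, 36.2 and 34 TPM in young, 7.32, 12.5 and 16.9 TPM in aged saline and 5.93, 10.6 and 7.27 TPM in treated libraries. No aged library came near the young range, and the aged saline and treated ranges overlapped. The means were 32.9 ± 3.89, 12.3 ± 4.83 and 7.94 ± 2.41 TPM (SD, n = 3). Mean TPM was thus 2.68-fold lower in aged saline and 4.14-fold lower in treated mice than in young mice. Spp1 fell with age by 1.42 on the log2 scale (SE 0.272, adjusted p = 0.0134) and was lower in treated than in young mice by a log2 difference of -1.95 (adjusted p = 0.000497). The treated-to-aged difference was -0.53, with an interval of -1.15 to 0.08 (adjusted p = 0.197). That difference was -0.83 and passed without aged library 1 (adjusted p = 0.0317), and was -0.28 without aged library 3 (adjusted p = 0.485). The age difference with 2 libraries per group was -1.44 (adjusted p = 0.384) and the treated-to-young difference -1.89 (adjusted p = 0.0279). The age call was also lost without young library 2 (0.0518), young library 3 (0.0594) or aged library 2 (0.0536), given as adjusted p.

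Spp1 is also a neuronal gene of the hindbrain, and its order in young and aged saline libraries was that of the hindbrain list. Young libraries 1, 2 and 3 had hindbrain and spinal cord sums of 50.8, 69.8 and 62.9 TPM, and aged saline libraries 1, 2 and 3 had 1.58, 5.35 and 8.11 TPM. Within each of these groups that order was the order of Spp1. The treated libraries, at 0.622, 0.59 and 0.794 TPM, did not follow it. As for Lpl, 1 library per group held the middle value at most differing genes, and the list was chosen with earlier results known. The shared orders therefore cannot show where the Spp1 signal came from. Sums of 13 meningeal and perivascular fibroblast genes were 267 to 278 TPM in young, 149 to 204 TPM in aged saline and 165 to 170 TPM in treated libraries. Border macrophage genes summed to 17.6 to 22.6, 13.7 to 15.4 and 11.8 to 16 TPM. The part of these cells in the Spp1 result was not tested.

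**Figure D2:**
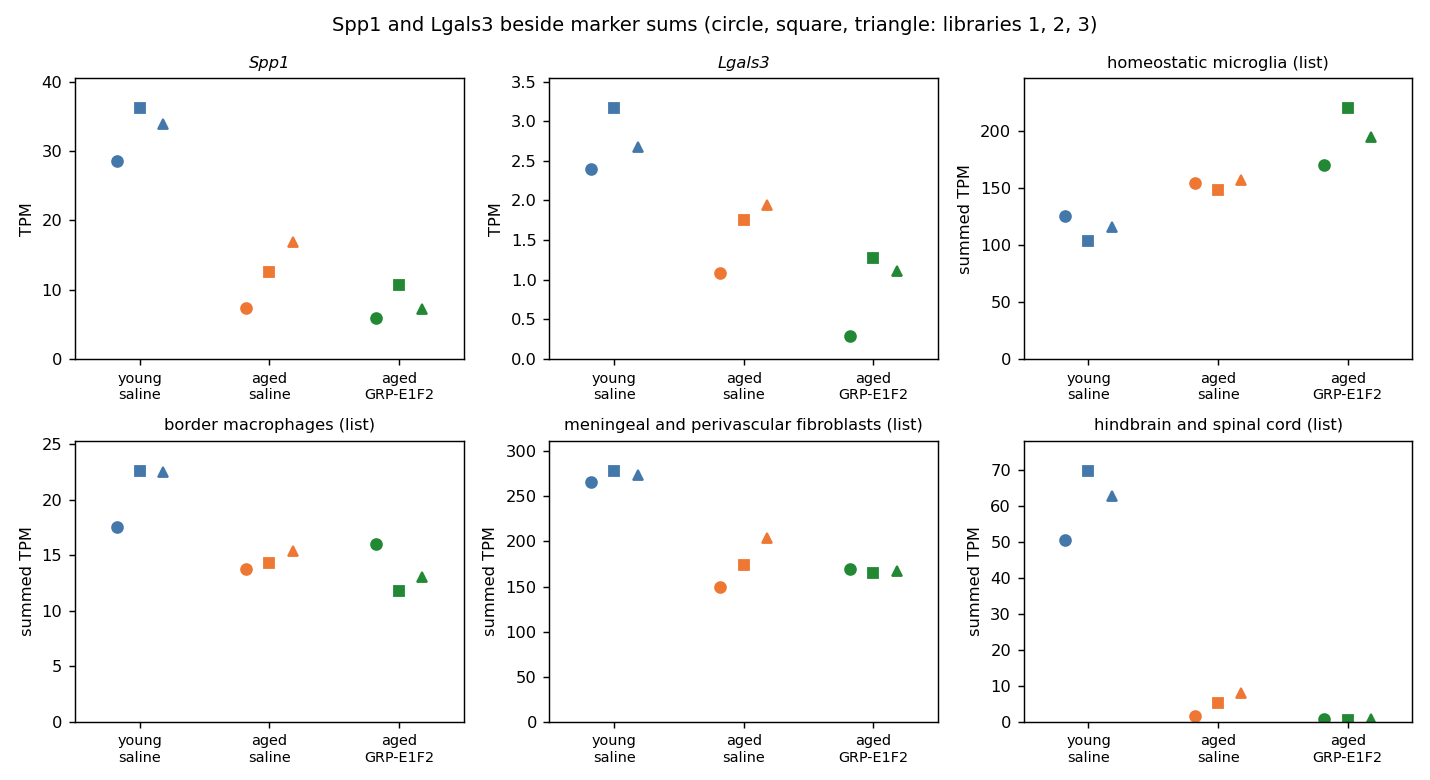
Levels of Spp1 and Lgals3 in TPM, and summed TPM of the homeostatic microglia, border macrophage, fibroblast and hindbrain lists. Each panel has the groups along the horizontal axis and its own linear vertical axis from 0. There is 1 point per library, coloured by group. Young libraries hold the highest Spp1 levels and hindbrain sums, and the treated libraries have hindbrain sums under 1 TPM.

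Lgals3, which encodes galectin-3, a sugar-binding protein of activated macrophages, lay lower with age at a low level. Lgals3 was at 2.4, 3.16 and 2.68 TPM in young, 1.08, 1.75 and 1.94 TPM in aged saline and 0.284, 1.27 and 1.11 TPM in treated libraries. Every aged library was under every young one, and the aged saline and treated ranges overlapped. The log2 difference with age was -0.54 (SE 0.218, adjusted p = 0.115), which passed without treated library 1 (adjusted p = 0.034). Lgals3 was lower in treated than in young mice by a log2 difference of -1.03 (adjusted p = 0.0045), and mean TPM was 3.09-fold lower. It became -1.14 (adjusted p = 0.061) with 2 libraries per group. Treated and aged saline mice differed by -0.49, with an interval of -0.98 to 0.01 (adjusted p = 0.147). That difference was -0.23 without treated library 1 (adjusted p = 0.35). With other pseudocounts it ran from -0.94 (0.1 TPM) to -0.16 (5 TPM).

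Axl, a receptor tyrosine kinase that binds GAS6 and helps clear dead cells, was modestly lower in both aged groups. Its levels were 14.3, 15.4 and 15.7 TPM in young, 11.3, 12.1 and 14 TPM in aged saline and 12.2, 12.5 and 13.2 TPM in treated libraries. All aged libraries were below the young ones. The age difference was -0.27 (SE 0.0812, adjusted p = 0.0522), and it passed without aged library 3 (-0.35, adjusted p = 0.0168). Axl fell by 0.24 in treated against young mice (adjusted p = 0.0348). This call was lost under median-of-ratios scaling (adjusted p = 0.124), under quantile normalisation (0.172) and with 2 libraries per group (0.287). It was also lost without young library 2 or 3, aged library 2, or treated library 1, 2 or 3, at adjusted p = 0.0946, 0.118, 0.0545, 0.0845, 0.0713 and 0.061. Treated and aged saline mice differed by 0.02, with an interval of -0.16 to 0.21 (adjusted p = 0.857). Endothelial and pericyte markers, cells in which Axl is also known, summed to 287 to 307 TPM in young, 218 to 244 TPM in aged saline and 168 to 224 TPM in treated libraries, and their part was not tested. Itgax, the integrin subunit CD11c, ranged from 0.0103 to 0.168 TPM over the 9 libraries, and its groups overlapped.

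Counts over the 8 tested genes are read beside those over all genes. With age 1 gene rose (Trem2) and 1 fell (Spp1), and 6 were not called. Among all 13301 tested genes 16.7% were called, 5.48% up and 11.2% down. An unadjusted p under 0.05 was found for 7 of the 8 genes, beside 34.3% of all tested genes. The groups did not overlap at 6 of the 8 genes, higher in aged mice for Trem2, Lpl and Cd68 and lower for Spp1, Axl and Lgals3, beside 41.5% of all tested genes (14.7% higher and 26.8% lower). Between treated and aged saline mice 0 of the 8 genes passed limma's test and 0 were under an unadjusted p of 0.05. In that comparison 20.8% of all tested genes were called (7.47% up and 13.4% down) and 35.5% had an unadjusted p under 0.05. The ranges of treated and aged saline libraries overlapped for all 8 genes, while 36.3% of all tested genes had separate ranges (14.9% higher and 21.5% lower). Each interval still allows a change: the widest, for Spp1, ran from -1.15 to 0.08.

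Between treated and young mice 3 genes rose (Trem2, Lpl and Cd68) and 3 fell (Spp1, Axl and Lgals3), where 46.6% of all tested genes were called (17.2% up and 29.4% down). An unadjusted p under 0.05 was found for 6 of the 8 genes and for 53.9% of all tested genes. The ranges were separate for 6 genes, Tyrobp among them in place of Lpl, beside 61.4% of all tested genes (22.9% higher and 38.5% lower). The comparisons share libraries, so their values are not independent. The median log2 difference of the 8 genes was 0.15 with age, -0.06 between treated and aged saline mice and 0.09 between treated and young mice, beside -0.05, -0.02 and -0.07 over all tested genes. Among all genes called, 32.9%, 35.9% and 37% were upward in these comparisons as deposited. The shares became 47.6%, 44.4% and 49.3% under median-of-ratios scaling and 46.7%, 49.9% and 51.1% under quantile normalisation. Between treated and young mice with 2 libraries per group, Spp1 alone of the 8 genes passed. That share is near the share of all tested genes called in the same fit, counted in the closing section.

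**Figure D3:**
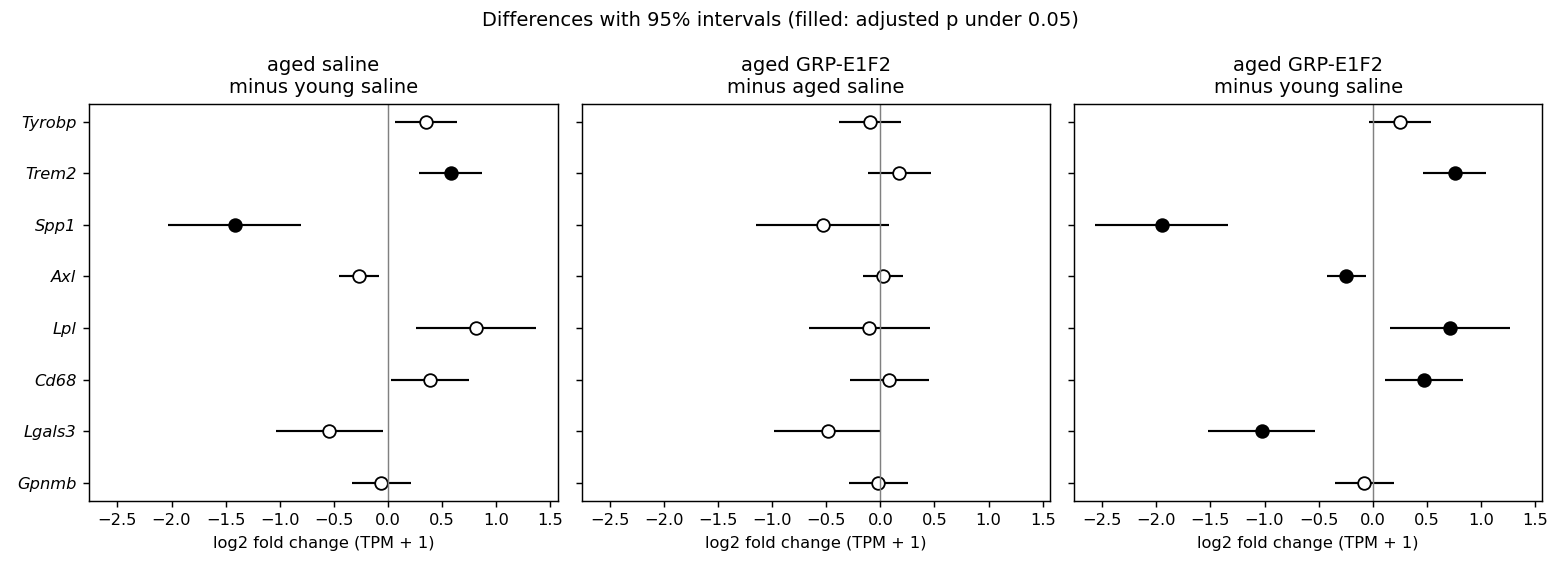
Log2 differences of the 8 tested genes in the 3 comparisons on the log2(TPM + 1) scale, with bars for 95% intervals. Filled points passed an adjusted p of 0.05. Trem2 lies to the right and Spp1 to the left of 0 with age, and in treated against aged saline mice every interval crosses 0.

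Levels were also set against the homeostatic genes of the same library, as a description with no test. The mean log2(TPM + 1) of the 13 homeostatic genes was 2.85 ± 0.13 in young, 3.25 ± 0.04 in aged saline and 3.61 ± 0.22 in treated libraries (SD, n = 3). Trem2 minus that mean was 0.91, 1.08 and 0.91 in the 3 groups. Relative to these genes, then, the Trem2 ranges overlapped between all groups. Tyrobp stood at 3.05, 2.99 and 2.54 above the homeostatic mean. The treated libraries lay under the aged saline ones for every tested gene but Trem2. For Tyrobp they were at 2.45 to 2.71, against 2.72 to 3.17. Cd68 lay at -0.11, -0.13 and -0.40 and Lpl at -0.21, 0.19 and -0.26. The group means of the other 4 tested genes became lower from young to aged saline to treated libraries: Spp1 at 2.23, 0.40 and -0.48, Axl at 1.17, 0.49 and 0.16, Gpnmb at -1.75, -2.22 and -2.59, and Lgals3 at -0.95, -1.90 and -2.73. The higher homeostatic mean in the later groups lowers the values of every gene in this paragraph by itself. Gpnmb alone differed by -0.06 with age and -0.02 between treated and aged saline mice, and Axl by 0.02 in the latter comparison.

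**Figure D4:**
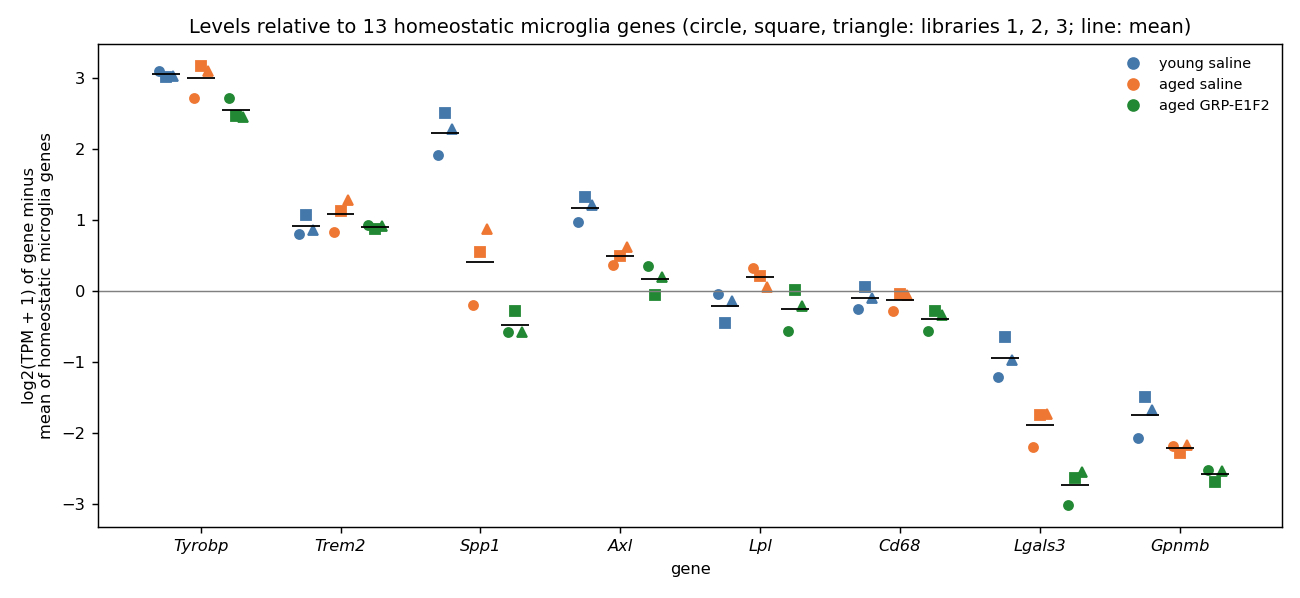
Log2 level of each tested gene minus the mean log2 level of 13 homeostatic microglia genes in the same library. Points are libraries and lines are group means. Trem2 points of the 3 groups overlap, while Spp1 drops from a mean of 2.23 in young to -0.48 in treated libraries.

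Other genes of the disease-associated state divided in both directions. Of 34 measured, 29 were tested, and the shares called were near those over all genes: 17.2% with age, 24.1% between treated and aged saline mice and 41.4% between treated and young mice, beside 16.7%, 20.8% and 46.6%. With age 3 rose, namely Baiap2l2, the surface protein gene Cd52 and the lysosomal protease gene Ctss, and 2 fell, the tetraspanin gene Cd63 and the hypoxia factor gene Hif1a. Cd52 stood at 9.07, 8.59 and 6.3 TPM in young, 23.9, 23.4 and 30.7 TPM in aged saline and 27.8, 10.4 and 20.4 TPM in treated libraries, so that all young libraries lay below the rest. Apoe, the lipid carrier gene, differed by -0.07 with age (adjusted p = 0.71). In treated against aged saline mice 3 rose, among them Baiap2l2 with Timp2 and Cadm1, and 4 fell, among them the lysozyme gene Lyz2, Hif1a and the cathepsin gene Ctsz. Lyz2 was at 19.9, 23.5 and 26.9 TPM in aged saline and 8.44, 16.2 and 12.1 TPM in treated libraries. Between treated and young mice 4 rose and 8 fell. The median differences were -0.05, -0.10 and -0.09.

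Baiap2l2, which encodes a membrane-curving protein, was the member of that list that rose in all 3 comparisons. Its levels were 1.49, 1.09 and 1.16 TPM in young, 2.27, 2.67 and 3.5 TPM in aged saline and 4.82, 4.67 and 4.32 TPM in treated libraries. The 3 groups did not overlap. Its log2 differences were 0.76 with age (adjusted p = 0.00842), 0.57 between treated and aged saline mice (adjusted p = 0.0133) and 1.32 between treated and young mice (adjusted p = 5.97e-05). The list, with 2 libraries per group, had no call with age or between treated and aged saline mice, and 1 gene up and 1 down between treated and young mice. The age count of 3 up and 2 down became 2 and 0 without young library 2, aged library 2 or treated library 3, and 1 and 0 without young library 3. The treated-to-aged count became 0 up and 1 down without aged library 2 and 1 and 1 without treated library 3. In treated against young mice, 4 up and 8 down became 2 up and 6 down without young library 3.

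The signalling list around TREM2 and TYROBP, with kinases, phosphatases and related receptors, had 28 measured and 18 tested genes. Its shares called were 16.7%, 27.8% and 33.3% in the 3 comparisons, beside 16.7%, 20.8% and 46.6% of all tested genes. With age the adaptor gene Blnk and the receptor gene Siglech rose and Vav2 fell. In treated against aged saline mice Siglech and Inpp5d, the gene of the SHIP1 phosphatase that restrains this pathway, rose, and Adam17, Vav3 and the kinase gene Lyn fell. Between treated and young mice 3 rose (Siglech, Blnk and Inpp5d) and 3 fell (Lyn, Adam17 and Vav3). Spi1, which encodes PU.1, stood at 3.49 to 6.45 TPM over the 9 libraries. Trem1 was listed at 0 in all 9, and Syk, the kinase that TYROBP recruits, was under the level for testing. Median differences were 0.05, 0.09 and 0.08. With 2 libraries per group 0 and 0 genes were called in the first 2 comparisons and 2 up and 1 down in the last. The age count of 3 genes was 1 without young library 2, 0 without young library 3 or aged library 2, 2 without aged library 1 or treated library 3, and 5 without treated library 2. The treated-to-aged count of 5 was 1 without young library 3, aged library 2 or aged library 3, 3 without aged library 1, treated library 1 or treated library 2, and 0 without treated library 3.

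Ligands, receptors and relatives of the 10 genes came to 36 measured and 29 tested genes. With age 41.4% of these were called, between treated and aged saline mice 24.1% and between treated and young mice 62.1%, beside 16.7%, 20.8% and 46.6% of all tested genes. Falls also outnumbered rises among all genes as deposited, an excess that was smaller or gone under the other scalings given above. In this list falls still outnumbered rises under quantile normalisation. The counts were then 2 up and 8 down, 2 up and 6 down, and 4 up and 11 down in the 3 comparisons. With age 3 rose, Cst6, Cst3 and Tyro3, and 9 fell, Ctsc, Angptl4, Lamp1, Mitf, the galectin genes Lgals8 and Lgals1, Itgb5, Sdc4 and the AXL ligand gene Gas6. Gas6 was at 63.4, 69.9 and 68.5 TPM in young, 49.5, 54 and 61.8 TPM in aged saline and 48.2, 44.7 and 48.1 TPM in treated libraries. The young libraries lay above all the others. Gas6 thus fell with age by 0.29 on the log2 scale (adjusted p = 0.0442), and the treated-to-aged difference was -0.22 (adjusted p = 0.0917). Among receptors of osteopontin, the integrin gene Itgb5 fell with age by 0.38 (adjusted p = 0.0164) and by 0.66 between treated and aged saline mice (adjusted p = 0.000614). Cd44, another such receptor, differed with age by -0.33 (adjusted p = 0.17) and fell between treated and young mice by 0.65 (adjusted p = 0.00848). Itgav, the gene of the subunit that pairs with the ITGB5 protein, had differences of 0.12 with age (adjusted p = 0.445) and 0.22 between treated and aged saline mice (adjusted p = 0.15), and it rose between treated and young mice by 0.34 (adjusted p = 0.0212). Between treated and aged saline mice Ctsc alone of this list rose and 6 fell. Between treated and young mice 3 rose and 15 fell. Gpihbp1, the partner of lipoprotein lipase on vessels, was listed at 0 in all 9 libraries. The medians were -0.15, -0.07 and -0.28.

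Cathepsin C and a cystatin moved with age and were near the young level in treated mice. Ctsc, which activates granule proteases and is a target of cystatin F, was at 7.93, 7 and 7.35 TPM in young, 2.21, 2.96 and 4.19 TPM in aged saline and 6.65, 7.71 and 7.72 TPM in treated libraries. The aged saline libraries stood below all the others. Ctsc fell with age by 1.06 (adjusted p = 0.00573) and rose between treated and aged saline mice by 1.05 (adjusted p = 0.00194). Neutrophil genes moved opposite to Ctsc, with sums of 6.9 to 9.97 TPM in young, 38.5 to 106 TPM in aged saline and 1.83 to 5.56 TPM in treated libraries, and their part was not tested. Cst6, which encodes cystatin E/M, was at 22.7, 21.9 and 23 TPM in young, 29.7, 34.5 and 32.3 TPM in aged saline and 22.4, 21.9 and 21.3 TPM in treated libraries. The aged saline libraries stood above all the others. Cst6 rose with age by 0.49 (adjusted p = 0.00403) and was lower in treated than in aged saline mice, at -0.53 (adjusted p = 0.000689). The age and treatment comparisons share the aged saline libraries. With 2 libraries per group this list had 0 calls with age, 0 between treated and aged saline mice, and 0 up and 5 down between treated and young mice. The age count of 12 was 4 without young library 2, 3 without young library 3 or aged library 2, and 8 without aged library 1 or treated library 3. The treated-to-aged count of 7 was 11 without aged library 1.

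Genes whose pattern was most like that of each member were found by Pearson r of log2(TPM + 1) over the 9 libraries, given without a p because libraries share group and tissue makeup. For Trem2 they were Hvcn1 (r = 0.981), Ctss (0.979) and Tlcd2 (0.974). Cd68 was nearest to H2-K1 (0.979), Rpl19 and Rpl27a. The closest to Spp1 were Spacdr (0.994), Cntnap4 and Gpld1, and to Lgals3 Calb2 (0.989), Fam222a and Ly6a. Tyrobp was nearest to Crh (0.971), Id1 and Lag3, and Lpl to Stat6 (0.987), Krt9 and Rpl31. Axl was most like Aamp (0.986), Tbl3 and Sf3b4, and Gpnmb most like Ephb4 (0.912), Gm40811 and Tgfb2. Among the members themselves, r was 0.904 for Trem2 and Cd68, 0.933 for Spp1 and Lgals3, 0.886 for Spp1 and Axl, and -0.70 for Trem2 and Spp1.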

How the data were processed

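RNA-seq values of 9 brain libraries, 3 per group, were used. The authors deposited TPM values per gene. The submitters' processing notes name mm10 as the build and, as tools, GATK, SAMtools 0.1.18, Picard and HISAT2. NEBNext Ultra II libraries of total RNA were sequenced, per the labels' protocols. The tool, annotation and strand setting behind the TPM were not given in the sources used here. Because the deposited table holds no counts, depth is unknown and no counting interval can be given.

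Of 22192 genes, the 13301 averaging 1 TPM or more were tested on log2(TPM + 1), a scale that understates changes of low genes. R 4.3.3 and limma 3.58.1 (a linear model per gene, moderated with a mean trend) were used over all 9 libraries, two-sided, with Benjamini-Hochberg adjustment over all tested genes. "Rose" and "fell" stand for an adjusted p under 0.05. The script was tested on simulated data.

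The 10 members and all lists were chosen with earlier results of these data known. Named were the members, up to 6 called genes per list and comparison with the smallest p, and the 3 genes most like each tested member. Further genes, such as Cd44, Apoe, Gas6, Itgb5, Spi1, Syk and Tmem119, were added after their values were seen. Of 322 list genes, 2 (Fcrls and Trac) were not analysed here, and single values of a few others are not reported here. Sums of some of the 20 marker lists are given. Positions and promoters are RefSeq's for GRCm38.p6. Python 3.11.15, numpy 2.4.6, pandas 2.3.3 and matplotlib 3.10.9 were used. Alternatives were other pseudocounts, filters and scalings, a replicate block, a fit of only the groups compared, 2 libraries per group and leaving out each library.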

Additional observations from a re-analysis of the deposited data

How the results depend on the processing

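With age, 2 members were called (1 up and 1 down). The counts were 4 with the replicate number as a block (1 up and 3 down), 4 in a fit of only the groups compared (3 up and 1 down), 0 with 2 libraries per group, and 0 to 5 when 1 library was left out. Between treated and aged saline mice the count of 0 became 1 with the replicate block (Lgals3, down, adjusted p = 0.0463) and was 0 to 1 with 1 library left out. Between treated and young mice the count of 6 became 4 with no filter and 4 in a fit of only the groups compared (Cd68 and Lpl lost in both), and 5 under each of 2 other scalings (Axl lost), 5 with the block and 5 at a mean of at least 5 TPM. It became 1 with 2 libraries per group and 3 to 5 with 1 library left out. Counts over all genes under the block, the fit of only the groups compared, the filters and the other scalings are not reported here. Changes of the member counts under these settings therefore cannot be set beside all genes. The cause of these changes was not tested. The labels' replicate numbers did not visibly pair the samples. This was read from each gene's deviations from its group mean, correlated between libraries of different groups. Same-numbered libraries had r of -0.0549 to 0.126, and differently numbered ones -0.134 to 0.123. With the block Lpl was lost between treated and young mice (adjusted p = 0.0707), and Axl and Lgals3 passed with age (0.0404 and 0.0396). Of the 13 homeostatic genes 2 rose with age under the block, against 6 without it. Signs reversed for uncalled differences only. With 2 libraries per group these were Gpnmb with age (0.0368) and, between treated and aged saline mice, Axl (-0.0221) and Tyrobp (0.0051). Under quantile normalisation Gpnmb was 0.15 between treated and aged saline and 0.0867 between treated and young mice. With 1 library left out, the treated-to-aged differences ranged from -0.0771 to 0.066 for Gpnmb, -0.0358 to 0.10 for Axl, -0.34 to 0.17 for Lpl and -0.0789 to 0.29 for Cd68, and treated-to-young Gpnmb from -0.18 to 0.0038. Over all 13301 tested genes, the 2217, 2771 and 6204 calls became 3, 248 and 1713 with 2 libraries per group. With 1 library left out they ran from 371 to 2635, 1345 to 3060 and 4737 to 6635. The member and list counts given for these fits are read beside these numbers. Gpnmb and Lgals3 have no value under a mean of at least 5 TPM. Unknown depth limits statements on Cst7 and Itgax.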
